A study of Mus musculus with 4 samples.

Results

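The 187 accessible chromatin regions described here were distal, were present under every condition examined, and carried an ETS site but no AP-1 site. They were chosen by the peak calls of 4 FAIRE-seq libraries together with the DNA sequence: all peaks of the 4 lists were merged into 35795 regions, 10538 autosomal regions held a peak in every list, and 5530 of those had their middle more than 2 kb from every transcription start site (TSS) of the GENCODE annotation of the mouse genome (mm10). Among these constant distal regions, 187 (3.38%, 95% Wilson interval 2.94 to 3.89) had CCGGAAA or CCGGAAG on either strand in the 500 bp around the middle and had neither TGACTCA nor TGAGTCA there. A further 3106 had AP-1 only, 178 had AP-1 and ETS, and 2059 had neither. Since every region was selected on a call in all 4 libraries, their presence in each library is no result, and regions lost or gained under a condition are not among them.

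FAIRE recovers DNA that is not crosslinked to nucleosomes, and sequencing it maps accessible chromatin. The cells were EpRas, a line derived by H-Ras transformation from EpH4 mouse mammary gland epithelial cells, so all 4 groups carried active H-Ras. At day 4 the groups were siControl left untreated, siControl with TGF-β (TGF-β3, 1 ng/ml), siEtv4/5 set 1 with TGF-β and siEtv4/5 set 2 with TGF-β, where the 2 sets are different pairs of siRNAs against Etv4 and Etv5. Each group had 1 peak list, so no spread between replicates could be measured, and no p-value is given. The lists hold no transcript levels, and the knockdown of Etv4 and Etv5 was not checked here. The intervals printed below cover counting error or the spread between regions only.

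ETS proteins are a large family of transcription factors that share a DNA-binding domain and recognise a GGAA core, with CCGGAA the form most of them bind best. Etv4 and Etv5 belong to the PEA3 branch of the family, whose genes are induced and whose proteins are activated downstream of Ras and ERK. AP-1, made of Fos and Jun proteins, also responds to Ras and is a frequent partner of ETS factors at composite elements of enhancers, while CCGGAAG sites also occur alone in many CpG-rich promoters.

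The stretches below show what such a region looks like. They are the 121 bases around the mean summit of the 8 strongest named regions whose ETS site lay within 50 bp of that summit, read from the plus strand of mm10 and labelled with the nearest protein-coding gene. Capitals mark the ETS site, which reads CTTCCGG or TTTCCGG where it lies on the minus strand.
Tfap4, chr16:4541952-4542072: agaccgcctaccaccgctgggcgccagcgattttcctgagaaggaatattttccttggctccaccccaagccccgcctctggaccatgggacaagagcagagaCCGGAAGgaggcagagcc
Eya2, chr2:165693399-165693519: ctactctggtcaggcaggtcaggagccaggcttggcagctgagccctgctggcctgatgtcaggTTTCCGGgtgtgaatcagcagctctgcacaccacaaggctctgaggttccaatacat
Wnt7b, chr15:85634618-85634738: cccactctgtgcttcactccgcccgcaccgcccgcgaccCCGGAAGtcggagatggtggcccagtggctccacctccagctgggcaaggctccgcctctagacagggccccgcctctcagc
Zscan25, chr5:145280380-145280500: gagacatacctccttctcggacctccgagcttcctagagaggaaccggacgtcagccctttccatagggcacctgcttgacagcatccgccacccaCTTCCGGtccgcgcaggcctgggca
Zfp960, chr17:17004982-17005102: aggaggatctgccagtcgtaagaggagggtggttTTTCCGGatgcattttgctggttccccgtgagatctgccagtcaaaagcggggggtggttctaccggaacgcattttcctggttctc
Atp23, chr10:126905969-126906089: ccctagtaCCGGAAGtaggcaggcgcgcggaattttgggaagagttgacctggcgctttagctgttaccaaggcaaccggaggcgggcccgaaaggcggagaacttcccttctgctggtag
Camk1g, chr1:193449679-193449799: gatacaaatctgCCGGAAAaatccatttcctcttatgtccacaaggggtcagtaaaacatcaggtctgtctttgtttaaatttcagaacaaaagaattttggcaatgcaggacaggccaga
Vgll3, chr16:66272619-66272739: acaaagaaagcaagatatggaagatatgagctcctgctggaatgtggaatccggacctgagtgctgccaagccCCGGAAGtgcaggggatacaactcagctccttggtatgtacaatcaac

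Most regions held a single copy of the site. Of the 187 regions, 169 had 1 site, 16 had 2 and 2 had 3, which gave 207 sites in all. The regions with 3 sites, shown next to let the spacing be seen, were those nearest Wnt7b (a secreted signalling ligand) and Atp23 (a mitochondrial protease).
Wnt7b, chr15:85634647-85634869: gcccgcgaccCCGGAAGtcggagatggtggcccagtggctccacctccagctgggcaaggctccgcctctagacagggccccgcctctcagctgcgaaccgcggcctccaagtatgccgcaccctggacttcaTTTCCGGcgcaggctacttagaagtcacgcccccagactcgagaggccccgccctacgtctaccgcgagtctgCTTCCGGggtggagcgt
Atp23, chr10:126905946-126905993: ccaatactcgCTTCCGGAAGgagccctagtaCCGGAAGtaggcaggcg

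The Atp23 run includes a palindrome, read as a site on each strand, so its 3 sites cover 2 separate stretches. CCGGAAG made up 137 of the 207 sites (66.2%, 59.5 to 72.3), CCGGAAA the rest. In 438571 windows of 500 bp placed every 5 kb over distal autosomal sequence, where 2.26% held an ETS site, 7.80% an AP-1 site and 2.08% an ETS site without AP-1, the share of CCGGAAG among sites was 58.6% (57.6 to 59.5). The long form ACCGGAAGT was found at 12 of the 207 sites (5.80%, 3.35 to 9.86) and at 3.04% (2.73 to 3.38) of those in the tiled windows. In the regions with AP-1 and ETS, ACCGGAAGT made up 4.79% (2.54 to 8.85) of 188 sites, so the regions with and without AP-1 were not distinguished by it.

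The ETS sites were spread over the window more evenly than AP-1 sites were in the regions that hold them. The rule asked for a site within the 500 bp and not for its place there. The nearest ETS site lay a median of 90.5 bp (74.5 to 106.5) from the mean FAIRE summit of the 4 libraries, and within 50 bp of it in 53 of 187 regions (28.3%, 22.4 to 35.2). In AP-1 and ETS regions the share was 25.3% (19.5 to 32.1), a difference of 3.06 percentage points with an interval of -6.04 to 12.04. By contrast, the nearest AP-1 site lay within 50 bp in 2343 of 3106 AP-1 only regions (75.4%, 73.9 to 76.9), at a median of 25.5 bp.

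Site densities, counted per kb of window covered at each distance, showed the same contrast. ETS sites occurred at 2.89 per kb (exact Poisson interval 2.17 to 3.77) up to 50 bp from the summit, 2.99 (2.26 to 3.89) from 50 to 100 bp, 2.30 (1.66 to 3.10) from 100 to 150 bp and 1.57 (1.05 to 2.26) from 150 to 200 bp. The density was thus lower far from the summit than near it, and the first and last of these intervals overlapped only from 2.17 to 2.26. AP-1 sites in AP-1 only regions fell from 8.70 per kb (8.37 to 9.03) to 0.406 (0.338 to 0.485) over the same distances. The regions had a median width of 279 bp. The site lay inside the called region itself in 134 of the 187 (71.7%, 64.8 to 77.6) and in the flanking part of the window in the other 53. AP-1 sites lay inside the called region in 97.7% (97.1 to 98.2) of the AP-1 only regions, whose median width was 288 bp.

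**Figure D1:**
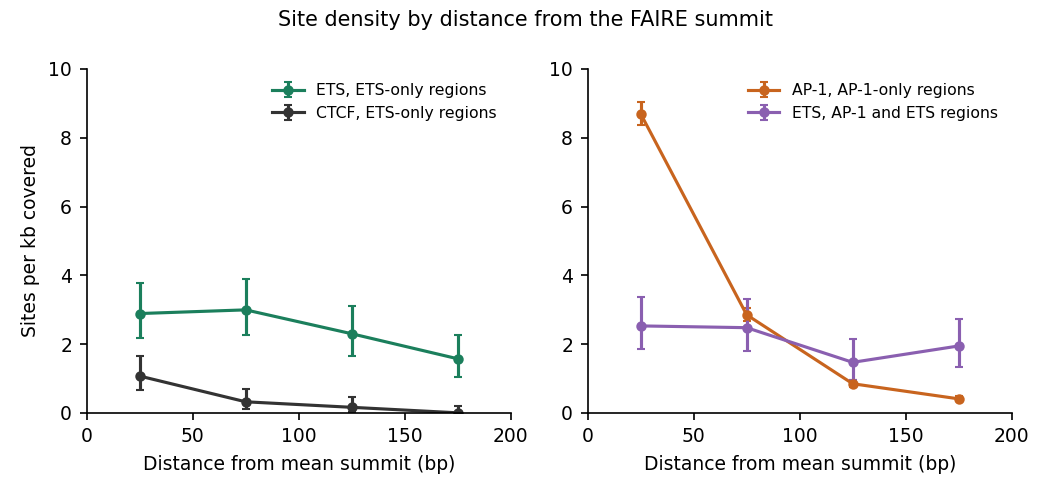
Sites per kb of window covered, by distance in bp from the mean FAIRE summit, with exact Poisson 95% intervals. Left, ETS and CTCF matches in the 187 ETS-only regions; right, AP-1 matches in 3106 AP-1 only regions and ETS matches in 178 AP-1 and ETS regions. The ETS curves run between 1.47 and 2.99 per kb, while the AP-1 curve drops from 8.70 to 0.406.

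In CpG content the regions stood apart from the other constant distal regions, and in GC content from those without an ETS site. Their median GC content was 51.0% (50.0 to 52.0), against 47.2% in AP-1 only and 47.6% in neither. In AP-1 and ETS it was 48.8% (47.8 to 50.4), an interval that overlaps that of the ETS-only regions. An ETS site itself contains 1 CpG, so CpG dinucleotides were counted outside the sites: the median was 10 (9 to 10) in 500 bp, against 7, 6 and 6. A window with over 50% GC and a CpG observed over expected ratio above 0.6, as a CpG island has, was found in 29 of 187 (15.5%, 11.02 to 21.4). The share was 3.89% in neither, 2.25% in AP-1 and ETS and 0.225% in AP-1 only, and the difference from neither was 11.6 percentage points (7.04 to 17.5). The part that the rule has in this difference, by asking for a site with a CpG, was not tested.

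More of the regions lay close to the 2 kb limit than did regions without an ETS site. From 2 to 5 kb from a TSS lay 45 regions (24.1%), against 16.5% in neither (difference 7.55, 1.74 to 14.3), while the difference of 6.09 from AP-1 and ETS had an interval of -2.32 to 14.3. The median distance to a TSS was 11.5 kb (9.04 to 15.2), and its interval overlapped those of neither, at 14.1 kb (13.2 to 14.9), of AP-1 and ETS, at 14.5 kb (11.3 to 17.2), and of AP-1 only, at 15.6 kb (15.0 to 16.5). By the position of their middle, 98 were intergenic (52.4%), 83 intronic (44.4%) and 6 exonic, all 6 in annotated UTRs and none in coding sequence. The annotation that defined distal was the basic GENCODE set. RefSeq transcripts started within 2 kb of 27 regions (14.44%, 10.1 to 20.2) and within 0.5 kb of 13, and 37 (19.8%) lay within 2 kb of a start in RefSeq or in the full GENCODE set, compared with 11.7% of neither (difference 8.08, 2.80 to 14.5).

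Several named regions are therefore at a start that the rule did not see. The Zscan25 region was 0.007 kb from a curated RefSeq start of that zinc finger gene, and the Slx4 region 0.008 kb from a predicted start of Slx4, a scaffold of DNA repair nucleases. The Wnt7b region, 52.2 kb from the Wnt7b start, was 0.026 kb from a predicted start of D130051D11Rik, and the Tfap4 region 0.048 kb from one of Srl. When all 37 were set aside, 150 regions remained and 10.0% of them were CpG-island-like.

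Just outside the 2 kb limit lay the regions of Eif2b5 (2.02 kb) and Cebpe (2.12 kb). Eif2b5 encodes a subunit of a translation initiation factor and Cebpe a myeloid transcription factor. Just within it, and so not counted, were regions with an ETS site and no AP-1 site nearest Atp5g2 (1.97 kb from a TSS), Tm9sf2 (1.92 kb) and Sema4f (1.84 kb). In the siControl library with TGF-β the fold enrichment was 9.53 and 8.81 in the first group and 6.68, 11.2 and 5.98 in the second, so the levels on either side of the limit overlapped.

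Among 15 other motifs searched on both strands, matches to the zinc finger insulator protein CTCF and to GC boxes were the ones in which the regions differed most from AP-1 only regions. A CTCF match was present in 28 of 187 regions (15.0%, 10.6 to 20.8), 1 of them overlapping the ETS site, against 2.80% of AP-1 only, 4.49% of AP-1 and ETS and 1.75% of tiled windows. The difference from AP-1 only was 12.2 percentage points (7.72 to 18.01). Regions with neither held it as often, in 13.6%. Of the 29 CTCF matches, 20 lay within 50 bp of the mean summit, a density of 1.07 per kb (0.653 to 1.65) that fell to 0.160 (0.0331 to 0.469) between 100 and 150 bp. The ETS sites of the same windows fell less over these distances, from 2.89 to 2.30 per kb.

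GC boxes (GGGCGG), which bind SP and KLF factors, were found in 50 regions (26.7%, 20.9 to 33.5), against 14.1% in neither, 9.56% in AP-1 only and 4.06% of tiled windows. When the regions with neither were weighted to the GC content of the ETS-only regions, their share became 22.6%, and the difference of 4.17 points had an interval of -1.99 to 11.2. ACATTCC, bound by the YAP partners of the TEAD family, was rarer: 16 regions (8.56%, 5.34 to 13.45) against 15.44% in neither, or 14.3% at equal GC, a difference of -5.74 points (-9.38 to -0.570). The tiled windows held it in 6.76%. A TEAD match and a YY1 match overlapped the ETS site in 1 region each. No other motif of the 15 had an interval of the GC-weighted difference that left out 0. In the middle 200 bp of the window these calls changed places: the GC-weighted difference was -3.10 points (-6.19 to 1.55) for TEAD and 7.003 (1.44 to 13.6) for SP/KLF.

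RUNX sites (TGTGGTT or TGCGGTT) were found in 36 regions (19.3%) and in 22.4% of neither and 12.004% of tiled windows. The CACGTG E-box was found in 11.2% against 7.14% and 4.89%, TGTTTAC of FOX factors in 3.74% against 8.06% and 7.45%, and CACCTG, bound by ZEB and Snail repressors, in 31.6% against 30.7% and 26.5%. Shares for AACNNGTT (grainyhead-like factors) were 9.63%, 7.77% and 7.91%, for TTGCNNAA (C/EBP) 20.9%, 23.99% and 22.0%, and for CCAATNA (NFY) 18.2%, 17.5% and 22.3%. The rarer AAGATGGC or AAAATGGC (YY1), TGACGTCA (CRE) and the NRF1 palindrome occurred in 5.35%, 1.604% and 2.14% of the regions and in 7.75%, 0.253% and 0.105% of tiled windows. GTCTAGAC (SMAD) and the NF1 palindrome were found in 0 of 187, which with the Wilson interval allows up to 2.01%, and in 0.386% and 0.0271% of tiled windows. A match is a stretch of letters and does not show that the factor was bound.

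**Figure D2:**
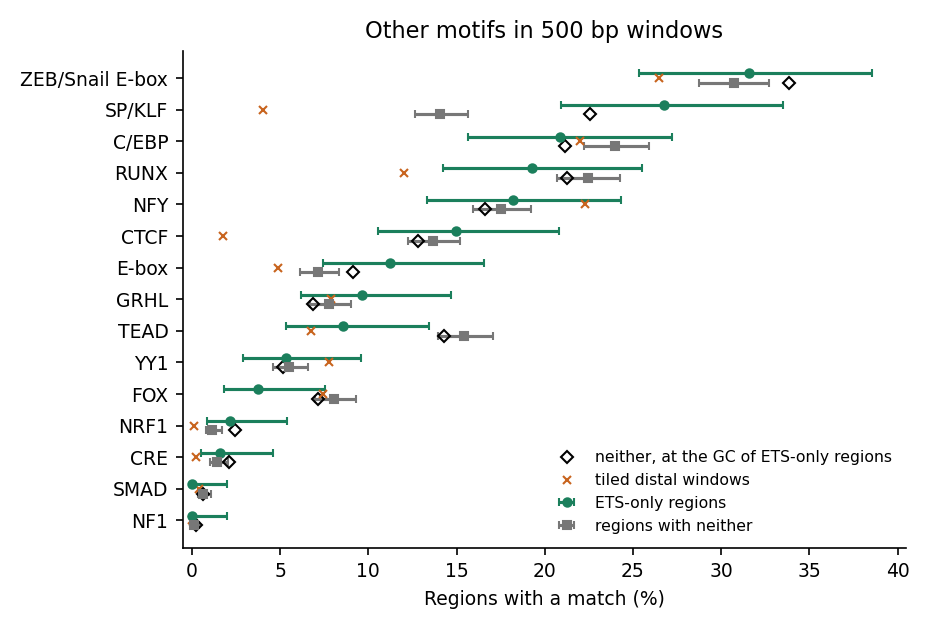
Share of regions with a match to each of 15 motifs in 500 bp, in percent, with Wilson 95% intervals, for ETS-only regions (circles) and regions with neither ETS nor AP-1 (squares). Diamonds give the share in regions with neither at the GC content of the ETS-only regions and crosses the share in tiled distal windows. SP/KLF stands at 26.7% against 14.1% before weighting and 22.6% after it, and TEAD at 8.56% against 15.44% and 14.3%.

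The level of accessibility in the 187 regions was close to that of the other constant distal regions in every library. The level is the fold enrichment at the peak summit over local background, from the deposited lists, taken from the strongest peak of a library in the region. Its median was 8.52 (7.92 to 8.96) in untreated siControl cells, 9.21 (8.77 to 9.58) in siControl cells with TGF-β, 8.27 (7.83 to 8.62) with siEtv4/5 set 1 and 7.27 (6.91 to 7.54) with set 2. Regions with neither had 8.32, 9.28, 8.21 and 7.14. The number of fragments at the summit behind each value, recovered from the lists, had a median of 24, 29, 25 and 23, and ranged from 12 to 65 over the 187 regions and 4 libraries. The lists differed in length, from 14925 peaks with set 2 to 28754 in siControl cells with TGF-β, and the depth estimated from the lists was 0.939, 1.06 and 1.27 times that of the siControl TGF-β library in the untreated, set 1 and set 2 libraries. The epithelial label was checked at the promoters of 9 marker genes: a region called in all 4 libraries lay within 2 kb of a TSS of the keratin gene Krt14 and of the epithelial ETS gene Elf3, at Krt8 and Krt18 in up to 3 libraries, at Cdh1 in 2, at Epcam, Esrp1 and Grhl2 in 1, and at Krt5 in 0. Of the markers of other cell types, Pecam1 had a region in 1 library, and Ptprc, Lum, Hbb-bs and Myod1 had none.

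**Figure D3:**
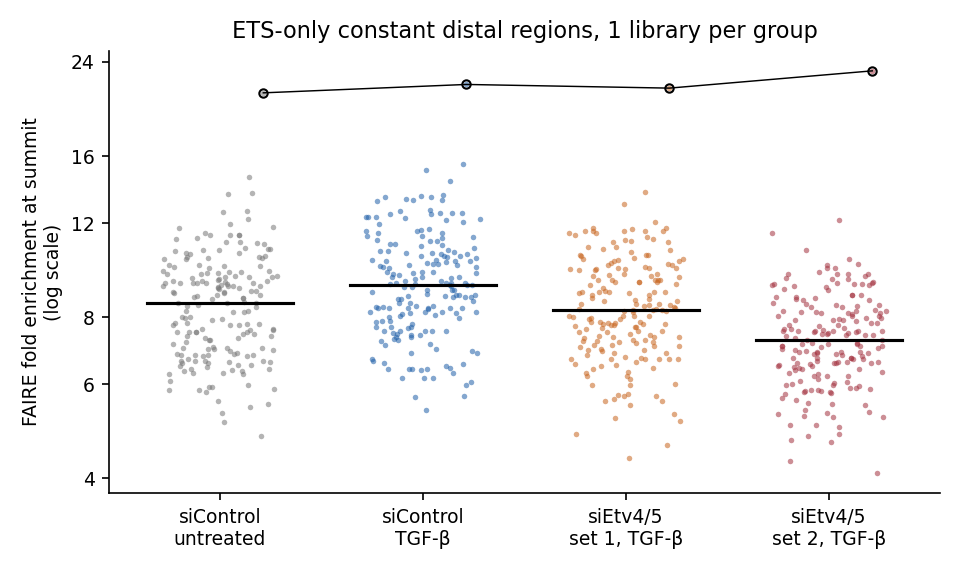
FAIRE fold enrichment at the summit (log scale) of the 187 ETS-only constant distal regions in each of the 4 libraries, 1 library per group. Points are regions and bars are medians, at 8.52, 9.21, 8.27 and 7.27, and the joined circles are the region nearest Samd9l, which lies above all others in every library at 21.02 to 23.1.

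A region at chr6:3201372-3201635, in intergenic sequence 198 kb from its nearest protein-coding gene Samd9l, was higher than all others. Its fold enrichment was 21.02 untreated, 21.8 with TGF-β, 21.4 in set 1 cells and 23.1 in set 2 cells, on 42, 46, 47 and 54 fragments. Its values in the 4 libraries were close to each other, unlike those of the region next in strength. That region, in an intron of Itpkb (a kinase of inositol phosphate signalling, chr1:180387450-180387820), had 12.6, 14.39, 11.2 and 8.23 in the same order.

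The other 8 of the 10 strongest regions reached at most 15.5 in any library. They lay nearest B3galnt2, a glycosyltransferase, with 14.7, 12.5, 12.1 and 7.56, and Ubtf, a factor of ribosomal RNA transcription, with 9.97, 15.5, 11.8 and 9.19. Nr4a1, an immediate early nuclear receptor gene, had 11.1, 13.6, 10.4 and 10.3. All 3 were lowest in the set 2 library. The regions nearest Ctdsp1, a small phosphatase, Slx4, Aacs, an enzyme of ketone body use, Tfap4, a basic helix-loop-helix factor, and AI467606 had between 8.88 and 15.1 over the 4 libraries. Ubtf and AI467606 held a CTCF match.

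Between the untreated and TGF-β libraries the regions showed a shift shared with the other constant regions. With 1 library per group, an effect of TGF-β and a difference between libraries cannot be told apart here. In siControl cells 132 of the 187 regions (70.6%) were higher with TGF-β than without, against 71.6% of all 5530 constant distal regions. The median log2 ratio of fold enrichment in the 187 was 0.12 (0.10 to 0.19). Over all 10538 autosomal regions called in 4 lists the median was 0.15 in this comparison, and -0.18 and -0.41 in those of set 1 and set 2. Relative to that shift, 5 ETS-only regions were past 1.5-fold higher and 3 past 1.5-fold lower with TGF-β (2.67% and 1.604%), against 3.18% and 2.03% of all 5530 constant distal regions. Without subtracting the shift the split was 14 higher and 0 lower (7.49% and 0%), against 8.57% and 0.687% of all constant distal regions. AP-1 only regions had a median of 0.20 (0.19 to 0.21), above the ETS-only interval, and regions with neither had 0.14 (0.12 to 0.16).

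With either siEtv4/5 set the 187 regions were lower than with siControl, by no more than the other classes were. With set 1, 129 regions were lower and 31.0% were higher, where 27.3% of all constant distal regions were higher. The median log2 ratio was -0.14 (-0.20 to -0.09), against -0.16 (-0.17 to -0.14) in neither and -0.18 (-0.19 to -0.16) in AP-1 only. With set 2, 166 were lower and 11.2% were higher, where 9.51% of all constant distal regions were higher. The median was -0.35 (-0.41 to -0.30), against -0.37 (-0.39 to -0.35) in neither and -0.42 (-0.43 to -0.41) in AP-1 only. Set against the shift of all constant regions, 6 were past 1.5-fold higher and 2 lower with set 1 (background 2.28% and 2.08%), and 7 higher and 2 lower with set 2 (background 3.13% and 2.21%). Without that subtraction 1 was higher and 13 lower with set 1 (0.535% and 6.95%, background 0.452% and 6.98%), and 1 higher and 33 lower with set 2 (0.535% and 17.6%, background 0.127% and 26.3%). Both sets were compared with the same siControl library with TGF-β, which also entered the TGF-β comparison, so a high or low value in that library moves all 3 ratios.

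Regions with neither were also weighted to the level and GC content of the ETS-only regions. Their mean log2 ratio was then 0.14, -0.16 and -0.37 in the order TGF-β, set 1, set 2, against 0.14, -0.15 and -0.34 in the ETS-only regions, whose standard errors over regions were 0.02 in each comparison. In none of the 3 comparisons was the mean of the ETS-only regions lower than that of the weighted regions. With set 2 the means were -0.343 and -0.373, with a standard error of 0.020 over the ETS-only regions. No interval of the difference was computed, so whether the means differ was not tested. The standard errors cover the spread between regions only.

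**Figure D4:**
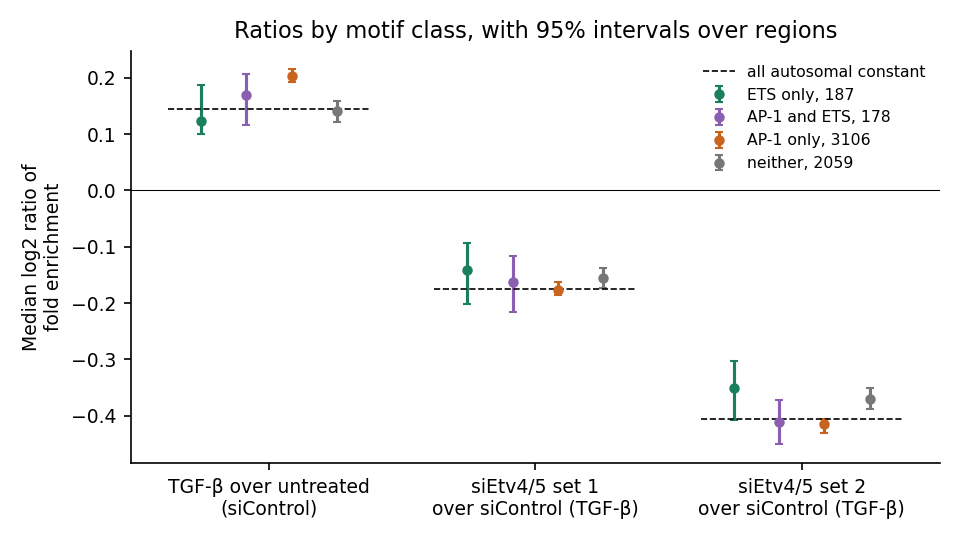
Median log2 ratio of FAIRE fold enrichment for 3 comparisons in the 4 motif classes of constant distal regions, with 95% order-statistic intervals over regions, and dashed lines at the median of all 10538 autosomal constant regions. ETS-only regions stand at 0.12, -0.14 and -0.35, close to the dashed lines at 0.15, -0.18 and -0.41.

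Among the ETS-only regions the intervals of these ratios overlapped in each division by the place, form or number of the site. The 53 regions with a site within 50 bp of the summit had medians of 0.10, -0.14 and -0.30 with TGF-β, set 1 and set 2, and the 134 others 0.14, -0.14 and -0.38, with overlapping intervals in each. The 38 regions with ACCGGAAG had 0.11, -0.14 and -0.35, against 0.14, -0.14 and -0.37 in the 149 without. The 18 regions with 2 or more sites had 0.23 (0.08 to 0.33) with TGF-β, against 0.12 (0.10 to 0.18) in those with 1, and the intervals overlapped. They had -0.18 (-0.53 to -0.02) with set 1 and -0.42 (-0.55 to -0.30) with set 2, against -0.14 (-0.20 to -0.08) and -0.35 (-0.40 to -0.29) in those with 1. The 29 CpG-island-like regions had 0.12, -0.11 and -0.37, next to 0.13, -0.14 and -0.35 in the others.

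The CTCF matches, looked at after the values had been seen, divided the regions more. The 28 with a match had a median of -0.18 (-0.29 to -0.01) with set 2, and the 159 without it -0.38 (-0.42 to -0.34). With set 1 the medians were -0.02 (-0.12 to 0.12) and -0.16 (-0.22 to -0.10), and with TGF-β 0.01 (-0.23 to 0.17) and 0.14 (0.11 to 0.21). Regions with neither showed a difference with set 2, at -0.30 (-0.35 to -0.24) with a CTCF match and -0.38 (-0.41 to -0.36) without. They also did with TGF-β, at 0.038 (-0.0023 to 0.088) and 0.155 (0.131 to 0.173). With set 1 their intervals overlapped, at -0.13 (-0.19 to -0.10) and -0.16 (-0.17 to -0.14). In AP-1 only regions the set 2 intervals overlapped, at -0.45 (-0.57 to -0.35) and -0.42 (-0.43 to -0.40).

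The regions at the ends of each ranking rested on few fragments, and as the extremes of 187 values they are given as a description. With TGF-β the highest log2 ratios were at Camk1g (a calcium-dependent kinase), Gpr84 (a receptor for medium-chain fatty acids) and Ptpn13 (a tyrosine phosphatase). The Camk1g region (chr1:193449646-193449857) had 6.88 untreated, 12.5 with TGF-β, 7.77 in set 1 cells and 7.41 in set 2 cells, a log2 ratio of 0.86 with TGF-β. The Ptpn13 region (chr5:103367246-103367683) rested on 14 fragments untreated and 31 with TGF-β, for which the log2 ratio of fragments scaled to depth was 1.06 with an exact interval of 0.10 to 2.08. For Gpr84 (chr15:103305163-103305485), with 22 and 40 fragments, it was 0.77 (-0.01 to 1.59). The Ptpn13 interval left out 0 but included 0.17, the median of all constant regions on that scale. For Camk1g, with 16 and 30 fragments, the depth-scaled ratio was 0.82 (-0.10 to 1.79), which includes 0. Camk1g was the region of the 3 that was near its untreated level with both sets. A high value in the shared siControl library with TGF-β enters all 3 of its ratios.

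The lowest ratios with TGF-β were at Snapc3 (a subunit of the small nuclear RNA activating complex), Zscan25 and Nav2 (a cytoskeletal protein), at -0.58, -0.57 and -0.49. The Zscan25 region had 11.7 untreated, 7.88 with TGF-β, 11.6 in set 1 cells and 9.66 in set 2 cells, and the Nav2 region 10.5, 7.48, 11.5 and 6.43. Both were among the 3 highest with set 1, at 0.56 and 0.62, beside Ccdc69 at 0.56, while with set 2 Zscan25 had 0.29, Nav2 -0.22 and Ccdc69 0.15. A low value in the shared siControl library with TGF-β enters the ratios of all 3 comparisons at Zscan25 and Nav2. With set 2 the highest were Nxph3 (a secreted neurexin ligand) at 0.64, Rab2a (a small GTPase of the secretory pathway) and Hoxc8 (a homeobox factor), both at 0.32.

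The lowest ratios with set 1 were at Zfp960 (-0.88), Slx4 (-0.77) and Eya2 (-0.74), a transcriptional coactivator whose intron holds the region and whose TTTCCGG lies 7.5 bp from the summit. The Eya2 region had 13.6 untreated, 13.44 with TGF-β, 8.04 in set 1 cells and 9.66 in set 2 cells, and the Slx4 region 12.6, 15.1, 8.88 and 9.43. Both were lower with each set than in either siControl library. Scaled to depth, the Eya2 intervals included 0 with set 1 (-1.77 to 0.11) and with set 2 (-1.57 to 0.17). The Slx4 intervals were -1.69 to -0.11 with set 1 and -1.88 to -0.32 with set 2. These include the medians of all constant regions on that scale, -0.26 and -0.71. With set 2 the lowest were Fam83c (-1.07), Gpr39 (-1.06), a zinc-sensing receptor, and Gm815 (-0.89). The Fam83c region had 58 fragments in siControl cells with TGF-β and 23 with set 2. Its depth-scaled log2 ratio was -1.68 (-2.44 to -0.96), against a median of -0.71 over all constant regions. With set 1 the Fam83c ratio was -0.49 (-1.08 to 0.11), an interval that includes 0. The Fam83c ETS site lay 132.5 bp from the summit, outside the called region.

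Over both sets together the lowest mean log2 ratios were at Cngb3 (-0.76), a cone photoreceptor channel subunit, Gpr39 (-0.74) and Bhlhe40 (-0.73), a basic helix-loop-helix repressor. The Gpr39 region, in an intron of that gene (chr1:125688067-125688458), had 11.2 untreated, 11.98 with TGF-β, 8.92 in set 1 cells and 5.76 in set 2 cells. The Bhlhe40 region, 123 kb from that gene in an intron of Itpr1, had 8.92, 10.1, 6.14 and 5.98. Scaled to depth, the Bhlhe40 intervals lay below 0 with set 1 (-0.79, -1.58 to -0.02) and with set 2 (-0.99, -1.77 to -0.23), on 39, 24 and 25 fragments. The median of all constant regions on that scale was -0.26 with set 1 and -0.71 with set 2, and both intervals include it.

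**Figure D5:**
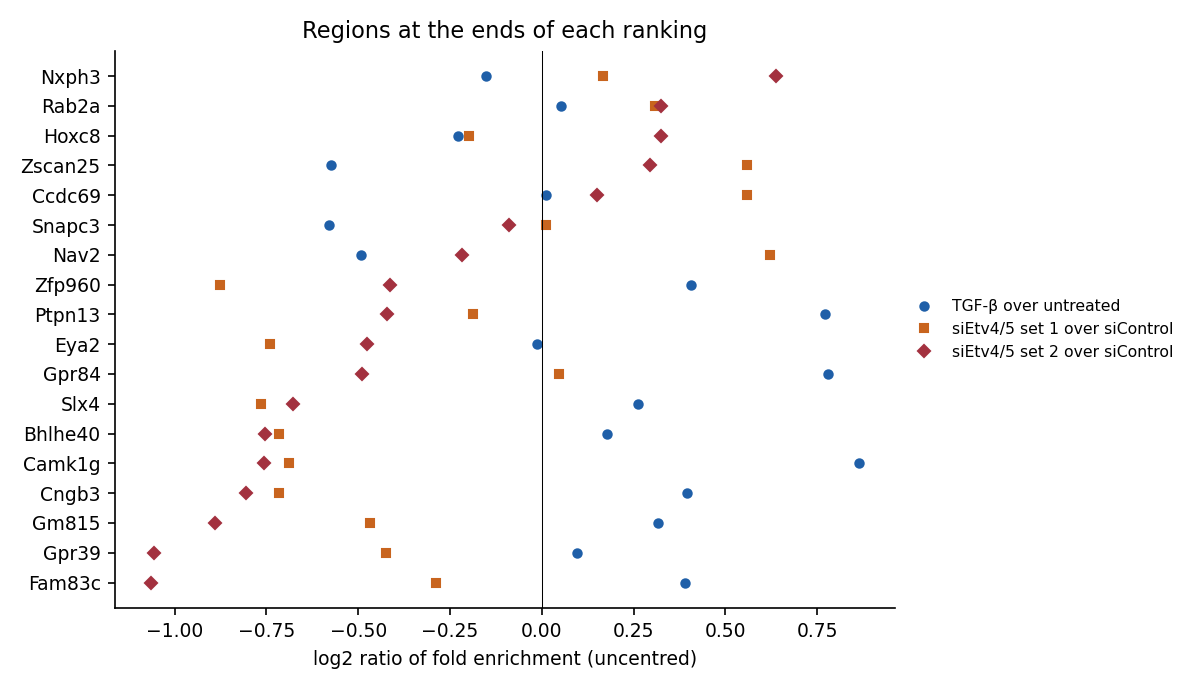
Uncentred log2 ratio of FAIRE fold enrichment at the regions with the highest or lowest values in any of the 3 comparisons, named by the nearest protein-coding gene, with circles for TGF-β over untreated and squares and diamonds for siEtv4/5 sets 1 and 2 over siControl with TGF-β. The 3 ratios share the siControl library with TGF-β. Fam83c and Gpr39 lie lowest with set 2 at -1.07 and -1.06, and Zscan25 and Nav2 are below 0 with TGF-β and above 0 with set 1.

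The regions lay nearest to genes of the pathways under study about as often as constant distal regions in general: 10 of 187 (5.35%, 2.93 to 9.56) were assigned to a gene of 8 lists, against 301 of 5530 (5.44%). By list, ETS family genes had 1 region (Ets1) among 12 constant distal regions assigned to the list, TGF-β and Smad genes 2 (Tgfb2 and Tgif1) of 55, mesenchymal and matrix genes 3 (Col1a2, Itgb4 and Fn1) of 60, epithelial genes 1 (Krt8) of 34, Ras and ERK genes 1 (Lif) of 72, YAP, TAZ and TEAD genes 1 (Vgll3) of 23 and RUNX genes 1 (Runx3) of 14. EMT transcription factors had 0 of 31. The 29 bases around the nearest ETS site show the sites of 9 of these 10 loci, on the plus strand of mm10 with the site in capitals.
Ets1, chr9:32716038-32716066: ccttggcatccCCGGAAGaggccttaatc
Tgfb2, chr1:186586933-186586961: tgaatagcatgCCGGAAGggtttagtcat
Tgif1, chr17:70738304-70738332: ccagcccagccCTTCCGGtttcctggaat
Col1a2, chr6:4419424-4419452: ttcagtcttacCCGGAAGcagcccctcca
Itgb4, chr11:115971117-115971145: ctagacagcagTTTCCGGgatacaccccg
Fn1, chr1:71912741-71912769: gacagagcaccCTTCCGGtcagtgtgact
Lif, chr11:4303504-4303532: tatgtctcatcCCGGAAAgaagatccttc
Vgll3, chr16:66272681-66272709: gctgccaagccCCGGAAGtgcaggggata
Runx3, chr4:135045360-135045388: ttatctgggaaCTTCCGGtcaccgcaccg

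The Ets1 region, in an intron of the founding gene of the family, had a fold enrichment of 6.82 untreated, 7.54 with TGF-β, 6.22 in set 1 cells and 4.31 in set 2 cells, and its site lay outside the called region, 176.5 bp from the summit. The Vgll3 region, 457 kb from the start of that TEAD cofactor gene, had 6.51, 10.6, 9.64 and 6.89, on 15, 26, 24 and 17 fragments. It was thus lower in the untreated siControl and set 2 libraries than in the siControl TGF-β and set 1 libraries. Its depth-scaled log2 ratio of TGF-β over untreated was 0.70 (-0.27 to 1.73), which includes 0. The region nearest Tgfb2, the gene of a TGF-β ligand, 119 kb away and 0.170 kb from a RefSeq start of the transcript Gm35546, had 6.63, 8.66, 6.97 and 5.81.

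The Tgif1 region, in an intron of Dlgap1 111 kb from the start of that Smad corepressor gene, had 6.28, 5.36, 4.37 and 5.51 and also held a CTCF match. It was lowest with set 1, and its ETS site lay 13.5 bp from the summit. The region nearest Itgb4, an integrin subunit of hemidesmosomes, lay 3.48 kb from its start and had 7.46, 9.26, 8.66 and 6.71. For Col1a2, Krt8, Fn1, Lif and Runx3 the 4 values ran from 8.05 to 11.4, 6.22 to 7.73, 5.67 to 5.94, 4.84 to 6.92 and 7.60 to 9.94. The Fn1 region, 259 kb from the fibronectin gene, varied least of these 5.

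The regions were largely separate loci. They were assigned to 185 different genes, and 2 lay within 10 kb of another of them. Another autosomal region called in 4 lists was within 10 kb in 48 cases. A stretch of 30 bases was shared by 12 pairs, formed by 8 regions. Chromosome 11 held 29 of the 187, which was 6.32% of its constant distal regions, the highest share of the 19 autosomes, and chromosome 18 had the lowest at 0.752%.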

How the data were processed

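FAIRE-seq peak lists of 4 EpRas libraries, 1 per group, were analysed. The authors trimmed Ion Proton reads to 36 bp, mapped them to mm10 and kept MACS2 peaks under a q-value limit of 0.0001. The submitters' processing notes name Bowtie and MACS2 2.1.0. The study describes 2 biological replicates, which the lists may pool. The deposited fold enrichment is a ratio over local background made by the authors, and the lists also hold the authors' −log10 p-value, −log10 q-value, score and summit offset. The regions, motifs and gene lists were chosen with earlier results of these data known.

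Peaks that overlapped or touched were merged. Distance was measured from the middle of the region to GENCODE M21 basic starts. Motifs were searched on both strands of GRCm38.p6. Fragments at the summit were solved from the deposited fold enrichment (pseudocount 1) and Poisson p-value, and were whole within 0.05 in 100% of peaks. Depth was taken from the lowest background level. Intervals are 95% (Wilson, Newcombe for differences, binomial order statistics for medians, exact binomial for fragment ratios). Regions were named by a rule: the 10 strongest, the 3 highest and lowest in each comparison and in the mean of both siRNA sets, those with 3 or more sites, those of the gene lists, and those nearest the 2 kb limit. A region and a sequence chosen by these rules are not reported here. The functions were tested on simulated data. Python 3.11.15, numpy 2.4.6, scipy 1.17.1 and pandas 2.3.3 were used. The closing section gives the alternatives.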

Additional observations from a re-analysis of the deposited data

How the results depend on the processing

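No paired analysis was possible because each group has 1 list, and for the same reason no replicate could be left out. The number of ETS-only regions was 108 with a 200 bp window, 38 when the site had to read ACCGGAAG, and 37 when AP-1 sites with 1 mismatch and CRE sites also had to be absent. These follow from the stricter rules. The other 5 alternatives gave 142 to 186, including 150 without regions near a RefSeq or full GENCODE start, a choice made after seeing the data that also lowered the CpG-island-like share to 10.0%. After subtraction of the median of all constant regions the median log2 ratios turned sign, but each interval included 0. They were -0.0220 (-0.045 to 0.041) with TGF-β, 0.0352 (-0.026 to 0.083) with set 1 and 0.0542 (-0.0026 to 0.103) with set 2. On summit fragments scaled to depth and not centred, the medians were 0.19, -0.27 and -0.67. The counts past 1.5-fold moved most without centring, to 14 higher and 0 lower with TGF-β (background 8.57% and 0.687%), 1 and 13 with set 1 (0.452% and 6.98%) and 1 and 33 with set 2 (0.127% and 26.3%). On centred depth-scaled fragments they moved to 10 lower with TGF-β, and to 13 higher and 5 lower with set 2. The share of all constant distal regions past 1.5-fold on that scale was not computed. These fragment counts therefore say nothing about the ETS-only regions in particular. Without weighting for GC content, 4 in place of 1 of the 15 motifs had a difference from regions with neither whose interval left out 0. In the middle 200 bp the count of motifs was 1 again, but of another motif: TEAD (-3.10, -6.19 to 1.55) gave way to SP/KLF (7.003, 1.44 to 13.6). Without weighting, the SP/KLF difference was 12.7 points (6.62 to 19.6), outside its GC-weighted interval of -1.99 to 11.2. Besides these changes, the other alternatives for these results stayed within 1.5 times a count or inside the interval. Depth limits single regions: with 12 to 65 fragments at a summit, ratios near 1.5-fold lie within counting error.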
